A study of Mus musculus with 26 samples.

Results

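Chromatin accessibility was compared between Kupffer cells of untreated A/J mice and Kupffer cells of untreated BALB/cJ mice. The comparison took 8 of the 26 samples of the series, 4 A/J control libraries and 4 BALB/cJ control libraries, and all peaks of chromosomes 1 to 19 with a mean normalized tag count over 16. That left 51380 of the 94171 autosomal peaks in the table. The mice of both groups were males of 8 to 12 weeks from 2 inbred strains, each a single genotype with no transgene, and per the labels they were fasted overnight and not injected. Kupffer cells had been sorted from digested liver as CD45+, F4/80 high, CD11b intermediate and CD146- cells, and assayed by ATAC-seq, in which the transposase Tn5 cuts accessible DNA. The wider study asked how natural genetic variation shapes the Kupffer cell response in these strains, in C57BL/6J and in hybrid mice. Reads of both A/J and BALB/cJ libraries had been aligned to a genome carrying the small variants of the strain and moved back to the reference, so these groups were processed alike. Larger structural variants were not in those strain genomes, and no source used here ties a library to a single animal, so p-values measure the spread between these libraries.

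Kupffer cells are the resident macrophages of the liver sinusoids, where they take up bacteria, aging red cells and lipoproteins from portal blood. Their accessible sites are promoters and, more often, distal elements bound by macrophage factors such as PU.1, AP-1, IRF and MAF family members. Inbred strains differ at sequence variants within these elements, in deleted or duplicated gene copies, and in the haplotype of the H2 locus, which encodes the antigen-presenting molecules.

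The reference sequence of peaks ranked at or near the top in each direction is shown here because these are sites where the strains stood far apart. Each sequence is the plus strand of mm10, the C57BL/6J reference, and the strain variants inside it are not shown. Capitals mark a match, on either strand, to a motif searched: PU.1 (GAGGAAGT), AP-1 (TGACTCA), IRF (GAAANNGAA), C/EBP (TTGCGCAA), NFIL3 (TTATGTAA), MAF (TGCTGA), E-box (CACGTG), RUNX (TGTGGT) or GC box (GGGCGG). For the peaks higher in A/J these were the promoter of the inflammasome sensor Nlrp1b, the promoter of its neighboring pseudogene Nlrp1c-ps, and an intergenic peak 59.1 kb upstream of Myo10, which encodes a filopodial myosin.
Nlrp1b promoter peak, chr11:71230758-71230958: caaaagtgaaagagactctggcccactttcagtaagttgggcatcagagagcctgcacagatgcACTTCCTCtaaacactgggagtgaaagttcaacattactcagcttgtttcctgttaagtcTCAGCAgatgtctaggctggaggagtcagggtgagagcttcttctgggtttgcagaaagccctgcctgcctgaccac
Nlrp1c-ps promoter peak, chr11:71285296-71285496: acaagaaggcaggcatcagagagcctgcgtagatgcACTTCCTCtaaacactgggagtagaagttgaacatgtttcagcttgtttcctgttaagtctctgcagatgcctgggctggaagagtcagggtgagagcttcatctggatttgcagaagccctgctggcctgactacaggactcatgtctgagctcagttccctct
peak upstream of Myo10, chr15:25563303-25563503: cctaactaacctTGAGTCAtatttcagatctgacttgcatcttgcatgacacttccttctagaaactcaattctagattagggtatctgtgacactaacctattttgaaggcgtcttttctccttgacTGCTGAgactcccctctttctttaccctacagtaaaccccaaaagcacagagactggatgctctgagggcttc
Both Nlrp1 promoters held a PU.1 match, the Nlrp1b promoter also a MAF match, and the Myo10 peak held an AP-1 and a MAF match. For the peaks higher in BALB/cJ these were the promoter of Mefv, which encodes the inflammasome sensor pyrin, the promoter of the actin regulator Eps8, and an intergenic peak 25.1 kb from the start of Tmsb10, which encodes an actin-sequestering peptide.
Mefv promoter peak, chr16:3718046-3718246: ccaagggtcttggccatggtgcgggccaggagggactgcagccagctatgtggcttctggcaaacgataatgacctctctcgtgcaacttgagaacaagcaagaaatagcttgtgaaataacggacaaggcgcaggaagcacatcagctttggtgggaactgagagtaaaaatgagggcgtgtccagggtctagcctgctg
Eps8 promoter peak, chr6:137570776-137570976: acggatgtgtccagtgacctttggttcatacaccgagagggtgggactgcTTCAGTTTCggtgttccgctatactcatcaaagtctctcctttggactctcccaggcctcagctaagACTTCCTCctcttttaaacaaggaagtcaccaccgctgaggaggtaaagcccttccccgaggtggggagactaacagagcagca
peak near Tmsb10, chr6:72933064-72933264: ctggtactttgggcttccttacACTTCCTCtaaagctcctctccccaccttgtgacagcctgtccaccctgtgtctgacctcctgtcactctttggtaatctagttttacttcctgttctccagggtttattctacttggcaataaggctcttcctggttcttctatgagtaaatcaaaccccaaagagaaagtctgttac
The Eps8 promoter held an IRF and a PU.1 match, the Tmsb10 peak held a PU.1 match, and the Mefv promoter held no match to any of these motifs. A match is only a description of the letters and was not tested for binding.

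Of the 51380 tested peaks, 2062 (4.01%) differed between the strains by more than 2-fold with an adjusted p under 0.05 in the edgeR quasi-likelihood test. More of them were higher in BALB/cJ than in A/J: 1329 peaks (2.59%) were higher in BALB/cJ and 733 (1.43%) were higher in A/J. Most sites were alike, with 74.9% of tested peaks within 0.5 of 0 on the log2 scale and a median log2 ratio of A/J over BALB/cJ of 0.02. Of the called peaks, 316 of those higher in A/J and 408 of those higher in BALB/cJ differed by more than 4-fold. In 93.2% of the peaks called higher in A/J and 92.0% of those called higher in BALB/cJ, the 4 libraries of one strain did not overlap the 4 of the other, against 10.2% of all tested peaks.

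**Figure D1:**
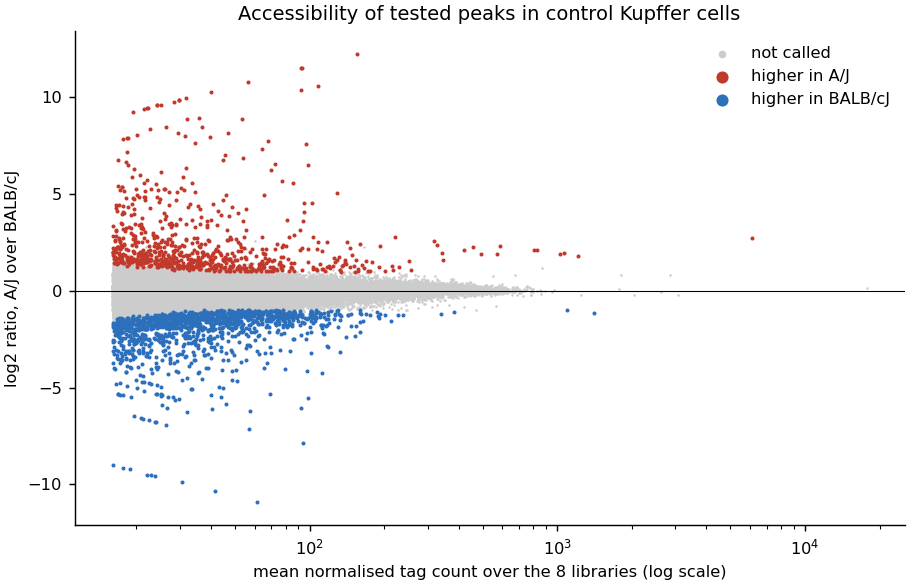
Each point is a tested peak. The horizontal axis is the mean normalized tag count over the 8 libraries on a log scale and the vertical axis is the log2 ratio of A/J over BALB/cJ, with the 733 peaks called higher in A/J in red and the 1329 called higher in BALB/cJ in blue. The outermost points are peaks with 0 tags in all libraries of a strain, where the fitted ratio depends on the prior count.

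The libraries differed in depth. Tags in autosomal peaks ran from 2.05 to 4.09 M in A/J and from 3.09 to 4.51 M in BALB/cJ replicates 1 to 3, while BALB/cJ replicate 4 held 46.4 M. Without that library 1332 of 41046 tested peaks were called, 538 higher in A/J (40.4% of the calls) and 794 higher in BALB/cJ. With that library thinned to the median depth of the others, 1515 of 41216 were called, 513 higher in A/J (33.9%) and 1002 higher in BALB/cJ. With all 8 libraries thinned to the smallest the share higher in A/J was 34.2%, against 35.55% in the main fit. The peaks had also been found per strain: 2545 tested peaks were in the BALB/cJ list and not the A/J list, and 749 were in the A/J list and not the BALB/cJ list. Within the 46810 peaks found in both lists, 466 were higher in A/J and 723 were higher in BALB/cJ.

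The labelled cell type was checked against its markers. Of 7 Kupffer cell marker genes 6 had a promoter peak (Clec4f, Timd4, Cd5l, Adgre1, Spi1 and Nr1h3). The other gene, Vsig4, lies on chromosome X, and only autosomal peaks were searched, so its promoter was not examined. As a sum these promoters were open to a like degree, at 780 to 854 normalized counts in A/J and 790 to 999 in BALB/cJ. Clec4f by itself was lower in A/J, at 27.8 ± 15.7 against 57.5 ± 37.9 in BALB/cJ (SD, n = 4 each), with wide spread. None of the 8 tested promoter peaks of these genes was called, against 1.16% of all tested promoter peaks. Of 16 hepatocyte genes 2 had a promoter peak, with summed counts of 27.3 to 42.8 in A/J and 14.6 to 30.6 in BALB/cJ, and albumin had none. Of the 12 tested peaks nearest to hepatocyte genes, none of them a promoter, 1 was higher in A/J and 5 were higher in BALB/cJ, 50% against 4.01% of all tested peaks, and these 6 lay at 2 of the genes. Of 14 lymphocyte genes only Cd4 had one, at 4.93 to 11.2 in all 8 libraries. Sinusoidal endothelium markers had a promoter peak at 4 of 13 genes and their sum was 67.3 to 124 in A/J and 121 to 189 in BALB/cJ. Of the peaks nearest to those endothelial genes 4 of 48 were higher in BALB/cJ (8.33% against 2.59% of all tested peaks) and 0 in A/J (against 1.43%). The gate on CD146- cells would remove this cell type, and its part in the results was not tested. In bulk chromatin fewer cells of a type and fewer tags per cell cannot be told apart. Stellate cell genes had a promoter peak at 1 of 11 (Col1a1, summed count 7.82 to 28.5). Monocyte genes had one at 4 of 11, with sums of 131 to 241 in A/J and 162 to 196 in BALB/cJ, and neutrophil genes at 3 of 11, with sums of 97.1 to 149 and 132 to 186.

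Promoters differed between the strains less often than distal sites. Of 15621 peaks within 1 kb of a transcription start, 181 (1.16%) were called, and of 35759 other peaks 1881 (5.26%) were called. Intergenic peaks were called most often (932 of 16002, 5.82%), then introns (866 of 17701, 4.89%) and exons, UTRs and gene ends (83 of 2056, 4.04%). The lower share at promoters was seen at every signal level: between a mean count of 16 and 32 it was 1.82% against 5.78%, and between 32 and 64 it was 1.53% against 6.38%. Direction differed too, because promoter calls split 87 to 94 while the other calls split 646 higher in A/J to 1235 higher in BALB/cJ. Peaks in long terminal repeats (6.88% of 3110) and LINE elements (6.86% of 1574) were called at shares above those of all tested peaks, and peaks in CpG islands at 1.26% of 2061.

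Among promoters other than those of predicted genes, the widest gaps were sites that were open in one strain and nearly closed in the other. At the Nlrp1b promoter, 125 bp from the start, A/J libraries held 144, 180, 225 and 199 normalized counts and all 4 BALB/cJ libraries held 0. At the Nlrp1c-ps promoter A/J held 74.6, 37.3, 56.8 and 86.0 and BALB/cJ again 0 in every library. Against a floor of 3 tags over the BALB/cJ group, A/J was at least 804-fold and at least 267-fold higher (adjusted p = 1.26e-09 and 1.79e-07). The C57BL/6J control libraries, which were not in the test and were processed without the shift between genomes, averaged 95.8 ± 9.64 (SD, n = 4) at the Nlrp1b promoter.

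Other promoters higher in A/J belonged to genes of antigen presentation and tryptophan breakdown. H2-Bl, an MHC class I family gene, held 76.2, 57, 58.9 and 63.7 in A/J and a single tag over the 4 BALB/cJ libraries, an 832-fold ratio with a 95% counting interval of 147 to 33000. Haao, which encodes an enzyme of the kynurenine pathway, held 61.9, 85.5, 90.4 and 44.6 in A/J against 5.47, 11.8, 4.06 and 5.84 in BALB/cJ, a log2 ratio of 3.39 ± 0.37 (SE, adjusted p = 5e-06). At neither of these did a library of one strain reach the range of the other, which the rule for naming promoter peaks required. Slfn8, a Schlafen family gene, was 5.25-fold higher in A/J at 50.5 ± 8.59 against 10.6 ± 7.37 (SD, n = 4 each), with BALB/cJ replicate 3 at 21.6 above the rest of its group at 6.84 to 6.97. Trim26, a ubiquitin ligase gene of the H2 region, was 6.39-fold higher at 47.5 ± 20.3 against 7.26 ± 1.47.

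Promoters higher in BALB/cJ included further immune genes. Mefv held 30.1, 66.1, 46.0 and 48.4 in BALB/cJ and 0, 0, 0 and 1.59 in A/J, where the last value was 1 tag, a 129-fold ratio with a counting interval of 23 to 5090 (adjusted p = 1.55e-06). Eps8 held 41.0, 47.3, 43.3 and 55.6 in BALB/cJ against 1.59, 0, 0 and 3.19 in A/J. Tnfaip6, which encodes a hyaluronan-binding protein induced by inflammation, held 28.7, 43.4, 59.5 and 43.9 in BALB/cJ and 0, 2.19, 4.20 and 3.19 in A/J, a log2 ratio of -4.24 ± 0.51 (adjusted p = 1.62e-05). All of these BALB/cJ libraries lay above all A/J libraries, which the rule for naming promoter peaks required. Glrp1, E2f2 (a cell cycle transcription factor) and Pkia (an inhibitor of protein kinase A) were also higher in BALB/cJ, by 20.5-fold, 13.2-fold and 8.48-fold. At E2f2 and Pkia the C57BL/6J mean, 4.60 ± 3.48 and 2.09 ± 0.99 (SD, n = 4), was nearer to A/J, and at Glrp1, at 48.0 ± 12.8, nearer to BALB/cJ.

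**Figure D2:**
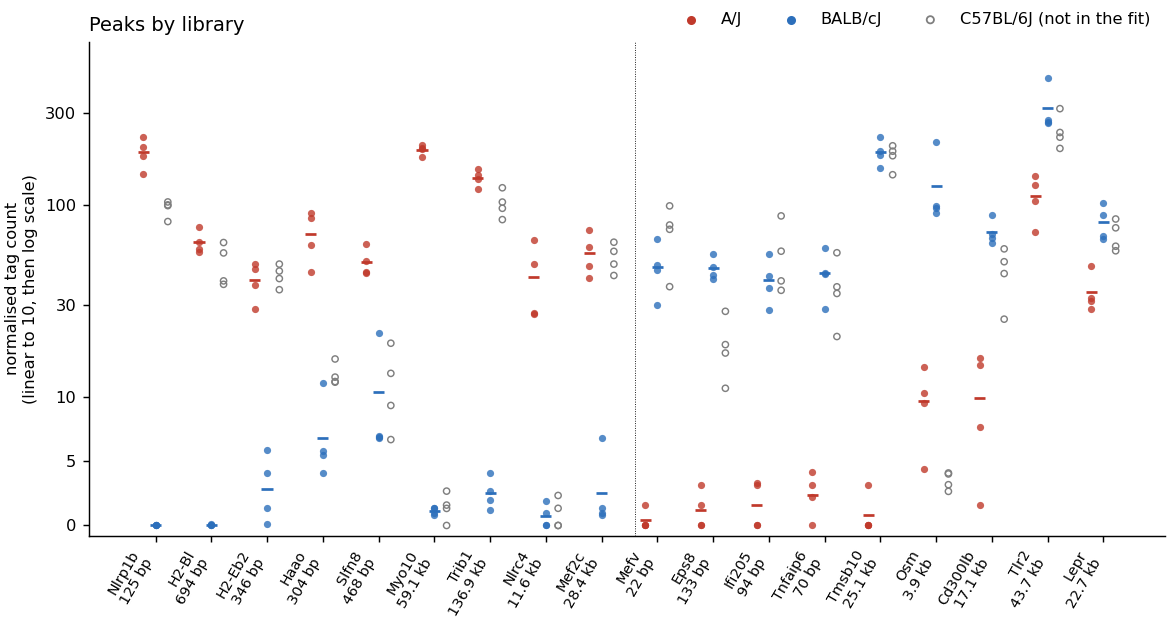
Normalized tag count at 18 peaks, named by the nearest gene and the distance to its start. Each point is a library and each bar the mean of 4, with A/J in red, BALB/cJ in blue and C57BL/6J, which was not in the fit, as open gray circles; the axis is linear to 10 and logarithmic above. The 9 peaks left of the dotted line were called higher in A/J and the 9 to the right higher in BALB/cJ. The A/J and BALB/cJ points do not overlap at any of them, which the naming rule required for a part of these peaks.

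Distal peaks reached the smallest p-values. The peak 59.1 kb upstream of Myo10 held 203, 197, 196 and 177 in A/J and 1.37, 0.99, 1.35 and 0.85 in BALB/cJ, a log2 ratio of 7.59 ± 0.32 (adjusted p = 2.25e-11). Its C57BL/6J mean was 1.40 ± 1.10 (SD, n = 4), so A/J stood apart from both other strains. An intronic peak 6.27 kb from the start of Brf1, which encodes a subunit of the RNA polymerase III initiation factor, had the same order at 107 ± 15.6 in A/J, 0.80 ± 0.57 in BALB/cJ and 1.02 ± 0.70 in C57BL/6J. Peaks 41.9 kb from Map2 (127 ± 36 against 3.44 ± 1.36) and 52.5 kb from Arl15 (89.2 ± 27.8 against 0.26 ± 0.52) were likewise high in A/J with C57BL/6J means of 4.06 and 0.33. An intronic peak of the endosomal sorting gene Ccdc93 was 33-fold higher in A/J, at 250 ± 45.3 against 8.08 ± 3.11, and there C57BL/6J averaged 125 ± 23.2.

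In the other direction, the peak 25.1 kb from Tmsb10 held 182, 155, 191 and 223 in BALB/cJ and 0, 0, 0 and 3.19 in A/J, a 283-fold ratio with a counting interval of 78.3 to 2340. Here C57BL/6J was open like BALB/cJ, at 178 ± 25.4. Peaks near Arf2 (182 ± 23.6 against 2.80 ± 2.70) and in the phosphatase gene Ptpro (87.3 ± 3.75 against 2.42 ± 1.34) were also open in BALB/cJ and C57BL/6J. A peak 17.1 kb from Myoc was open in BALB/cJ alone of these 3 strains, at 113 ± 10.1 against 0.55 ± 1.10 in A/J and 1.21 ± 1.66 in C57BL/6J.

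Across all called peaks C57BL/6J did not side with either strain as a rule. Of the 733 peaks higher in A/J its mean log2 normalized count was nearer to A/J at 307 and nearer to BALB/cJ at 426. Of the 1329 peaks higher in BALB/cJ it was nearer to A/J at 657 and nearer to BALB/cJ at 672.

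At some tested peaks a strain had no tag at all in its 4 libraries. BALB/cJ was at 0 at 16 peaks and A/J at 9, and a peak of this kind passed the minimum count through the other strain alone. The 2 libraries of BALB/cJ Kupffer cells from mice given LPS, which the test did not use, also held 0 tags at 14 of the 16. Most of the 30-base words recur elsewhere in mm10 at 3 of the 16 and at 1 of the 9, and the part of repeated sequence was not tested.

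The inflammasome list had 20.0% of its peaks called and the Ifi200 family 47.4%, while interferon-induced GTPases and antiviral effectors had 1.84%. The plot of gene lists gives these shares against the 4.01% of all tested peaks. Of 75 peaks nearest to inflammasome sensors and effectors, 6 were higher in A/J and 9 were higher in BALB/cJ, with a median log2 ratio of -0.01 and calls at 8 of 16 genes. Besides Nlrp1b and Mefv, a peak 11.6 kb from the start of Nlrc4, the adaptor that joins NAIP proteins to caspase-1, held 49.2, 27.4, 65.2 and 27.1 in A/J and 0, 0.99, 0 and 1.88 in BALB/cJ, a log2 ratio of 4.87 ± 0.55 (adjusted p = 6.79e-06). Its C57BL/6J mean was 0.92 ± 1.14, so of these strains this element too was open in A/J alone. Naip5, the flagellin receptor whose A/J allele is known for susceptibility to Legionella, was not called at its promoter, with 22.6 ± 9.46 in A/J and 24.4 ± 3.62 in BALB/cJ (log2 ratio -0.11 ± 0.36, adjusted p = 0.92), and 50.6% of the 30-base words of that peak recur in mm10. The Ifi200 family, a cluster of DNA-binding interferon-inducible proteins on chromosome 1, had calls at 9 of 19 peaks, 8 of them higher in BALB/cJ, and a median log2 ratio of -0.88.

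Within the Ifi200 cluster the members did not all move the same way. At the Ifi205 promoter BALB/cJ held 42.4, 55.2, 28.4 and 37.0 and A/J 3.17, 3.29, 0 and 0 (log2 ratio -4.42 ± 0.55, adjusted p = 2.87e-05). An intronic peak of Ifi202b, whose product opposes the AIM2 inflammasome, held 53.3, 55.2, 36.5 and 37.4 in BALB/cJ and 4.76, 5.48, 0 and 0 in A/J, while C57BL/6J was low at 2.68 ± 2.65. The Mndal promoter was 3.68-fold higher in BALB/cJ at 56.2 ± 21.5 against 15.1 ± 3.11. The Ifi209 promoter went the other way, with 36.5, 52.6, 67.3 and 65.3 in A/J and 17.8, 17.8, 13.5 and 9.14 in BALB/cJ (log2 ratio 2.01 ± 0.34, adjusted p = 0.00077). These genes are near copies of each other and the repeated share of 30-base words in the 4 peaks ran from 9.30% to 44.8%, so reads may be shared among copies.

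**Figure D3:**
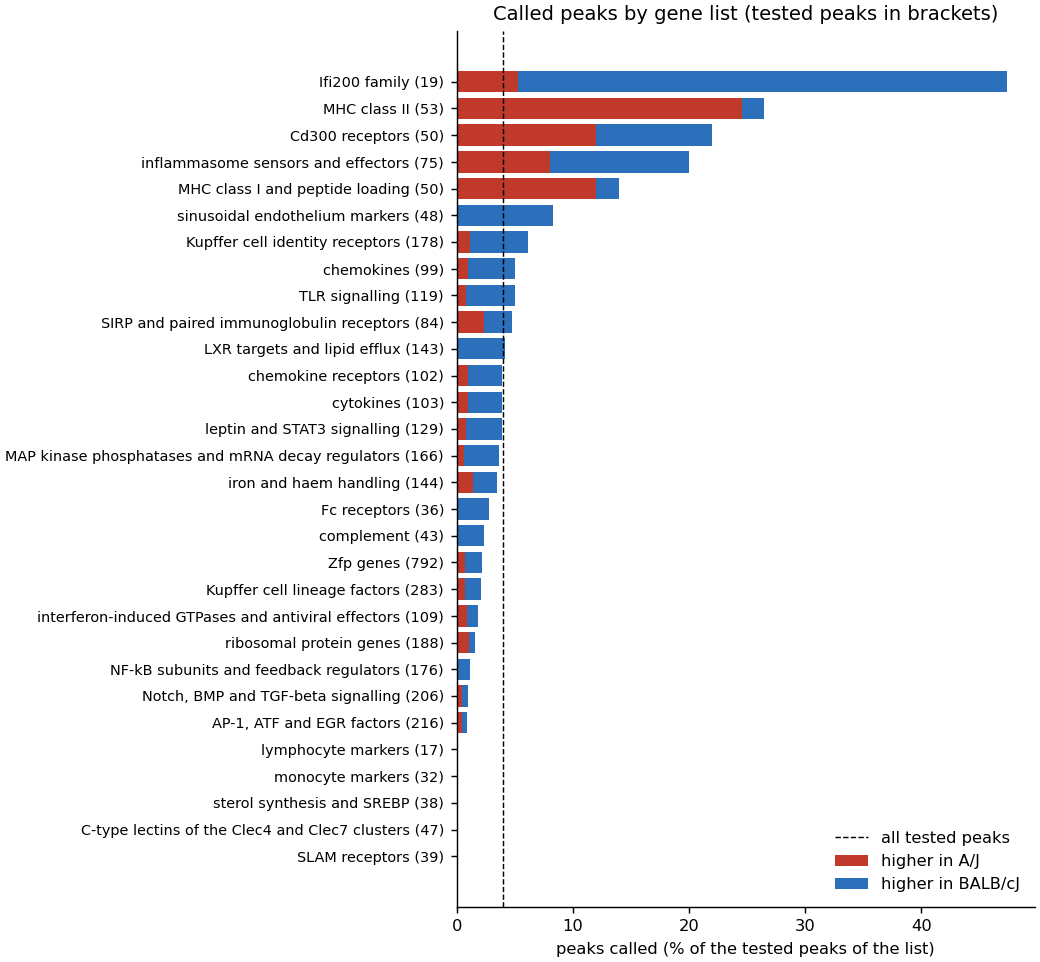
Share of tested peaks called for each gene list, in percent, with the part higher in A/J in red and the part higher in BALB/cJ in blue. The number of tested peaks is in brackets and the dashed line marks the 4.01% of all tested peaks. The Ifi200 family, MHC class II genes, Cd300 receptors and inflammasome genes lie furthest to the right of the lists drawn, and lists with 0 calls lie at the bottom, while lists with fewer than 17 tested peaks, and the list of examples of the study with 20.3% called, are not drawn.

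Called peaks of antigen presentation genes were mostly higher in A/J. The 53 tested peaks of the MHC class II list included 13 called higher in A/J and a single peak called higher in BALB/cJ. That was 24.5% and 1.89%, against 1.43% and 2.59% of all tested peaks, with a median log2 ratio of 0.58. Without A/J replicate 2 the 13 became 7. Of 50 peaks nearest to MHC class I and peptide loading genes 6 had more signal in A/J and 1 more in BALB/cJ (median 0.32), and without BALB/cJ replicate 4 the 6 became 2. The H2-Eb2 promoter, of a class II beta chain gene, held 28.6, 49.3, 46.2 and 38.2 in A/J against 4.10, 5.92, 1.35 and 0.09 in BALB/cJ, and C57BL/6J was open at 42.9 ± 5.53. A peak 6.33 kb from H2-Aa, which encodes a class II alpha chain, held 23.8, 53.7, 31.5 and 14.3 in A/J and 2.73, 11.8, 5.41 and 0.38 in BALB/cJ, a log2 ratio of H2-Aa that ran from 3.00 to 4.61 as each library was left out, and the call was lost without BALB/cJ replicate 1. The single exception lay near H2-DMb1, a gene of the peptide-loading H2-DM complex, at 0, 1.10, 2.10 and 1.59 in A/J and 31.4, 36.5, 48.7 and 16.1 in BALB/cJ. Tags summed over each strain gave an 18-fold ratio with a counting interval of 6.08 to 87.7, and the fit gave 26.8-fold.

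The class I list held promoters in both directions. H2-M2 was 4.94-fold higher in A/J at 70.3 ± 34.4 against 14.9 ± 8.57, and a peak 16 kb from the immunoproteasome gene Psmb9 was 3.96-fold higher at 58.8 ± 2.85 against 14.5 ± 7.26. The H2-T24 promoter was higher in BALB/cJ at 74.7 ± 14.4 against 38.1 ± 4.88, a log2 ratio of -1.01 ± 0.25 (adjusted p = 0.024) that was no longer called under 9 of 23 alternatives.

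By position, the differences in the H2 region of chromosome 17 fell into segments, whose bounds were chosen after the values were seen. The known background is that A/J carries a recombinant H2 haplotype, with its class II end from the k type and its D end from the d type, and that BALB/cJ carries the d type throughout. From 34 to 34.75 Mb, which holds the class II genes, 26 of 104 tested peaks were higher in A/J and 1 was higher in BALB/cJ, with a median log2 ratio of 0.51. From 34.75 to 35.75 Mb, 0 of another 104 tested peaks were called and the median was 0.20. Beyond it, from 35.75 to 38 Mb, 7 of 95 were higher in A/J and 5 were higher in BALB/cJ. The window of 250 kb with the most calls ran from 34.25 to 34.5 Mb, where 15 of 34 peaks, near H2-Ab1, H2-Aa, H2-Eb1, H2-Eb2, the pseudogene H2-Ea-ps, Btnl2 and Btnl4, were all higher in A/J.

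**Figure D4:**
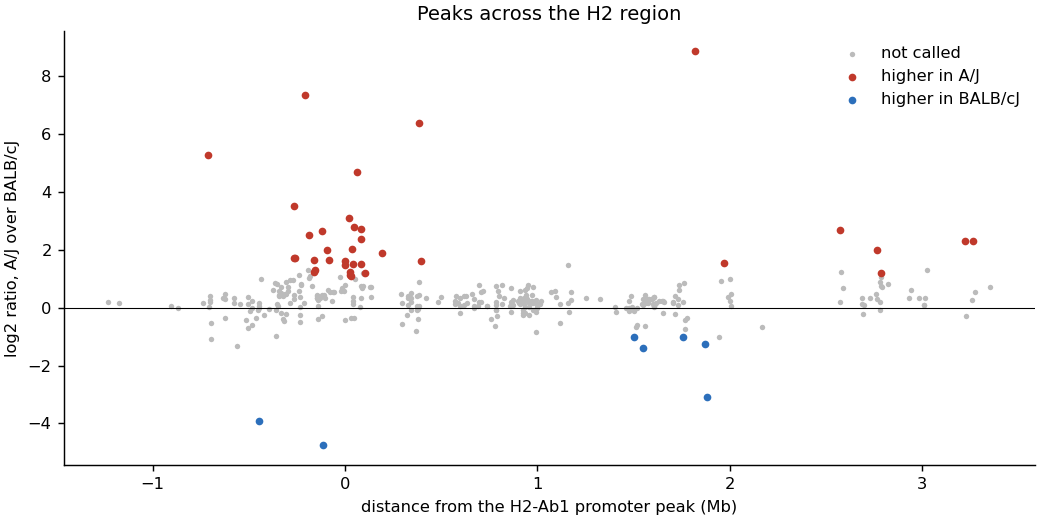
Each point is a tested peak of chromosome 17 between 33 and 38 Mb. The horizontal axis is the distance in Mb from the H2-Ab1 promoter peak and the vertical axis the log2 ratio of A/J over BALB/cJ, with peaks called higher in A/J in red and higher in BALB/cJ in blue. Red points cluster around 0, a stretch without calls follows, and calls in both directions return further right.

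The same uneven spread was seen over the whole genome. Of 954 windows of 2 Mb with at least 10 tested peaks, 287 had 0 called peaks although they held 11857 tested peaks, up to 234 in a window. The 5% of windows with the most calls held 26.0% of the calls in all windows. That ranking was by number of calls and favors windows with many tested peaks, whose share of the tested peaks was not examined. Called peaks that lay close together mostly had the same direction: neighbors 1 to 10 kb apart agreed in 183 of 201 pairs (91.0%), those 10 to 50 kb apart in 80.6% of 284, and those over 1000 kb apart in 364 of 607. The window with the largest share, from 92 to 94 Mb of chromosome 6, had 8 of 17 peaks called, all higher in BALB/cJ, and the next window, from 94 to 96 Mb, had 5 of 13, again all higher in BALB/cJ. Chromosome 1 from 66 to 68 Mb, which holds the Map2 peak, had 9 of 20 called, split 4 to 5 between A/J and BALB/cJ. Chromosome 11 from 112 to 114 Mb had 9 of 22, chromosome 13 from 116 to 118 Mb had 8 of 21, and chromosome 6 from 6 to 8 Mb had 6 of 17. By chromosome the called share ran from 2.10% on chromosome 10, where 4 of the calls went to A/J and 64 to BALB/cJ, to 6.44% on chromosome 1. On chromosome 17 most calls were higher in A/J (94 against 60).

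The Cd300 receptors, paired activating and inhibitory receptors for lipids on myeloid cells, had 6 peaks higher in A/J and 5 higher in BALB/cJ of 50 tested. That was 11 called of 50, where 4.01% of all tested peaks were called. A peak 7.83 kb from the start of Cd300ld held 149, 151, 130 and 114 in BALB/cJ and 1.59, 7.68, 0 and 1.59 in A/J (log2 ratio -5.34 ± 0.42, adjusted p = 8.93e-08), and C57BL/6J was low at 6.57 ± 3.35. A peak 17.1 kb from Cd300lb held 67.0, 63.1, 70.3 and 88.2 in BALB/cJ and 15.9, 7.68, 14.7 and 1.59 in A/J. A peak 1.18 kb from the start of Cd300e held 25.4, 17.5, 63.1 and 47.8 in A/J and 2.73, 3.94, 2.71 and 3.58 in BALB/cJ (log2 ratio 3.44 ± 0.47, adjusted p = 8.63e-05), with C57BL/6J at 5.57 ± 4.51. At all 3 peaks the strains did not overlap. Without A/J replicate 3, or without BALB/cJ replicate 3, the peaks higher in BALB/cJ in this family fell from 5 to 3.

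Kupffer cell identity receptors had 11 of 178 peaks called (6.18%, against 4.01% of all tested peaks), 9 of them higher in BALB/cJ, with a median log2 ratio of -0.17. That count rested on single libraries, with 5 higher in BALB/cJ without A/J replicate 2, BALB/cJ replicate 3 or BALB/cJ replicate 4, and 19 without BALB/cJ replicate 2. The promoter of C6, a gene of the terminal complement pathway, held 95.7, 61.1, 73.1 and 104 in BALB/cJ and 36.5, 18.6, 46.2 and 23.9 in A/J (log2 ratio -1.48 ± 0.30, adjusted p = 0.0054). Cd38, which encodes an NAD-consuming ectoenzyme, was 3.20-fold higher in BALB/cJ 15.4 kb upstream (97.5 ± 37.8 against 31.4 ± 11.8), and Cd163, the hemoglobin scavenger receptor gene, 3.33-fold at an intronic peak (31.5 ± 4.85 against 9.68 ± 5.43). Marco, a scavenger receptor for bacteria, went the other way at a peak 55.2 kb from its start, at 46.5 ± 16.4 in A/J against 14.3 ± 6.91 in BALB/cJ. The Cd163 call was lost without A/J replicate 2 or 4, with log2 ratios of -2.12 to -1.50 over all single-library exclusions, and the Marco call without A/J replicate 1 or 4, with 1.37 to 1.77.

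Lineage factors, the transcription factors that set the Kupffer cell program, were called at 6 of 283 peaks (2 higher in A/J, 4 in BALB/cJ, median log2 ratio -0.02), and the 4 became 7 without BALB/cJ replicate 2 and 2 without replicate 3. The 6 calls were 2.12% of the 283 peaks, against 4.01% of all tested peaks. None of the 42 tested promoter peaks of lineage factors was called, against 1.16% of all tested promoter peaks. An intronic peak of Mef2c, 28.4 kb from the start, was open in A/J at 60.3, 41.7, 73.6 and 47.8, and low in BALB/cJ at 6.84, 0.99, 1.35 and 0.85 (log2 ratio 5.10 ± 0.54, adjusted p = 3.53e-06). An intronic peak of Irf8, which encodes an interferon regulatory factor of myeloid cells, was 3.41-fold higher in BALB/cJ at 36.6 ± 7.25 against 10.9 ± 5.97.

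Receptors and transducers of bacterial signals were called at near the share of all tested peaks. In the TLR list 1 of 119 peaks was higher in A/J and 5 were higher in BALB/cJ (median log2 ratio -0.06). That was 5.04% called, against 4.01% of all tested peaks. A peak 43.7 kb upstream of Tlr2, the lipoprotein receptor gene, held 269, 266, 455 and 276 in BALB/cJ and 105, 72.4, 126 and 140 in A/J (log2 ratio -1.54 ± 0.22, adjusted p = 0.00011). A peak 29.6 kb from Tlr4, the endotoxin receptor gene, was 2.68-fold higher in BALB/cJ at 69.9 ± 12.3 against 25.9 ± 4.77, and one in the adaptor kinase gene Irak2 2.57-fold at 45.5 ± 9.60 against 18.2 ± 7.62. The Irak2 call was lost without A/J replicate 1, 2 or 4 or BALB/cJ replicate 3, with log2 ratios of -1.64 to -1.22 over all single-library exclusions. The promoter of Lbp, which encodes the protein that carries endotoxin to its receptor, was 2.58-fold higher in A/J at 90.9 ± 20.1 against 35.6 ± 7.32. The Irak3 promoter was not called, at 98.0 ± 48.6 in A/J and 144 ± 49.9 in BALB/cJ (adjusted p = 0.45).

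Downstream of these receptors few sites were called. Of 176 peaks of NF-kB subunits and feedback regulators 2 were called (1.14%, against 4.01% of all tested peaks), and the median log2 ratio was 0.06. Both were higher in BALB/cJ and lay near Nfkbiz (83.3 ± 19.9 against 29.6 ± 7.10 at the peak with the larger change). Of 216 peaks of AP-1, ATF and EGR factor genes 0.93% were called (median 0.07). Of these 1 was higher in A/J, near Jun (43.0 ± 10.9 against 16.1 ± 5.51), and 1 in BALB/cJ. Without BALB/cJ replicate 2 the count higher in A/J was 8. The Jun call was lost without A/J replicate 3 or 4 or BALB/cJ replicate 3, with log2 ratios of 1.16 to 1.59 over all single-library exclusions. Interferon-induced GTPases and antiviral effectors had 2 of 109 called (1.84%, median 0.23). MAP kinase phosphatases and mRNA decay regulators had 6 called of 166 (3.61%), 5 of them higher in BALB/cJ (median 0.08). The peak higher in A/J, 137 kb from Trib1, a pseudokinase gene, held 143, 154, 120 and 135 in A/J and 4.10, 1.97, 2.71 and 1.23 in BALB/cJ, a log2 ratio of 6.27 ± 0.36 (adjusted p = 1.74e-09).

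Cytokine and chemokine genes differed at a few distal elements. None of the 22 promoter peaks of cytokine genes or the 28 of chemokine genes was called, against 1.16% of all tested promoter peaks. A peak 3.93 kb upstream of Osm, which encodes the IL-6 family cytokine oncostatin M, held 90.2, 98.6, 212 and 96.5 in BALB/cJ and 14.3, 4.39, 10.5 and 9.56 in A/J (log2 ratio -3.74 ± 0.39, adjusted p = 3.01e-06), with C57BL/6J at 3.48 ± 0.69. The adjacent gene Lif, of the same cytokine family, had a peak that was 2.44-fold higher in A/J, at 32.0 ± 7.16 against 13.2 ± 2.68, and that call was lost without A/J replicate 1 or 2 or BALB/cJ replicate 2, 3 or 4, with log2 ratios of 1.14 to 1.39 over all single-library exclusions. A peak 42.7 kb from Il1b was 2.69-fold higher in BALB/cJ (91.3 ± 22.1 against 34.7 ± 9.71). In all, cytokine genes had 1 peak higher in A/J and 3 higher in BALB/cJ of 103 (3.88% called, median 0.14). Chemokine genes had 1 and 4 of 99 (5.05% called, median -0.04), against 4.01% of all tested peaks. Near Ccl6, a monocyte chemoattractant, BALB/cJ was 3.26-fold higher (128 ± 25.9 against 40.4 ± 9.41), and near Cxcl13, the B cell chemoattractant, 5.74-fold (37.6 ± 10.9 against 7.27 ± 7.84). Chemokine receptors had 1 and 3 of 102 (3.92% called, median 0.00). The 3 became 0 without BALB/cJ replicate 4 and 1 without replicate 2 or 3. A peak near Cxcr5 was 8.56-fold higher in BALB/cJ (32.9 ± 5.70 against 3.61 ± 2.19). One in the decoy receptor gene Ackr2 was 3.33-fold higher in A/J (56.5 ± 13.1 against 17 ± 1.87). The Cxcr4 promoter was not called, at 89.0 ± 22.6 in A/J and 86.9 ± 29.4 in BALB/cJ (adjusted p = 0.95), while a peak 155 kb away was higher in BALB/cJ at 82.4 ± 44.2 against 30.3 ± 15.8 (log2 ratio -1.48 ± 0.39, adjusted p = 0.032). The libraries overlapped at this distal Cxcr4 peak, and its call was lost without A/J replicate 1, 2 or 3 or BALB/cJ replicate 3 or 4 (log2 ratio -1.86 to -1.12 over the single-library exclusions).

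Metabolic lists were near the background. Leptin and STAT3 signaling genes had 1 peak higher in A/J and 4 higher in BALB/cJ of 129 (3.88% called, median 0.10). The 4 became 1 without A/J replicate 1, 2 or 3 or BALB/cJ replicate 4, and 2 without BALB/cJ replicate 1 or 3. The peak 22.7 kb upstream of Lepr, the leptin receptor gene, held 103, 69.0, 87.9 and 66.2 in BALB/cJ and 28.6, 32.9, 31.5 and 47.8 in A/J (log2 ratio -1.20 ± 0.27, adjusted p = 0.010), with no overlap. A peak 66.7 kb from Il6st, which encodes the shared IL-6 family receptor subunit, was higher in A/J at 29.4 ± 12.9 against 2.90 ± 0.86. LXR targets and lipid efflux genes had 0 higher in A/J and 6 higher in BALB/cJ of 143 (4.20% called, median -0.18). The 6 became 3 without BALB/cJ replicate 4 and 11 without BALB/cJ replicate 2. They included peaks of the lipid droplet gene Plin2 (36.1 ± 13.2 against 7.33 ± 3.35) and near the desaturase gene Scd1 (39.8 ± 18.8 against 9.15 ± 6.23). Iron and heme handling genes had 2 and 3 of 144 (3.47% called, median -0.08). Among them was an intronic peak of the ferrous iron transporter gene Slc11a2 at 37.3 ± 11.2 in A/J and 1.66 ± 1.43 in BALB/cJ. At Slc11a1, the phagosomal metal transporter gene for which BALB/cJ carries the susceptibility allele, the promoter was not called (226 ± 55.9 in A/J, 261 ± 30.6 in BALB/cJ, adjusted p = 0.55), and a peak 1.68 kb upstream was 1.81-fold higher in BALB/cJ with no overlap (adjusted p = 0.024), under the 2-fold limit. Without A/J replicate 3 it passed both limits.

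Several small lists had no called peak. By edgeR, SLAM receptors had 0 of 39 peaks called, C-type lectins of the Clec4 and Clec7 clusters 0 of 47 and sterol synthesis genes 0 of 38. Monocyte markers had 0 of 32 and lymphocyte markers 0 of 17, where 4.01% of all tested peaks were called. At that share a list of this size would hold few calls, and no list was tested. DESeq2, run on the same counts, also called 0 in each of these lists. Complement genes had 1 of 43 (C6, 2.33%) and Fc receptors 1 of 36 (2.78%). Notch, BMP and TGF-beta signaling genes had 2 of 206 (0.97%), and SIRP and paired immunoglobulin receptors 4 of 84 (4.76%). Ribosomal protein genes had 3 of 188 (1.60%) and Zfp genes 17 of 792 (2.15%). Neutrophil markers had 1 of 11 peaks called (9.09%, median log2 ratio 0.00). It lay at S100a8, a calcium-binding protein gene of neutrophils and activated macrophages, whose promoter was 2.76-fold higher in BALB/cJ (76.0 ± 15.4 against 27.0 ± 6.19). The endothelial gene Cdh5 had a peak 131 kb away at 30.1 ± 13.7 in BALB/cJ and 4.51 ± 3.10 in A/J, and Ngfr of stellate cells 1 at 34.1 ± 6.92 in A/J and 4.09 ± 2.26 in BALB/cJ.

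By sequence, sites with the AP-1 motif TGACTCA leaned to BALB/cJ. It was present in 19.4% of the peaks higher in BALB/cJ, 8.46% of those higher in A/J and 8.99% of all tested peaks. Outside promoters, 248 of 4101 peaks with the motif (6.05%) were higher in BALB/cJ against 987 of 31658 without it (3.12%), while 1.46% and 1.85% were higher in A/J. The median log2 ratio of peaks outside promoters was -0.17 with the motif and -0.01 without it. The share higher in BALB/cJ ran from 4.42% to 7.41% with the motif and from 2.21% to 4.11% without it when each library was left out in turn. In each library the median centered log2 count of peaks with the motif, less that of peaks without it, was -0.06, -0.03, -0.09 and -0.15 in A/J and 0.09, 0.13, 0.06 and 0.04 in BALB/cJ, so the strains did not overlap but the shift was small. C57BL/6J libraries lay at 0.08, 0.21, 0.05 and 0.02.

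The IRF motif GAAANNGAA leaned the other way. It was present in 13.8% of the peaks higher in A/J, 8.73% of those higher in BALB/cJ and 8.96% of all tested peaks. PU.1 letters were in 11.3% and 9.48%, against 9.72% of all tested peaks, and outside promoters they were in 10.7% of called peaks against 12.3% of all. MAF and RUNX letters were more frequent in peaks higher in BALB/cJ (25.1% and 20.0%) than in all tested peaks (17.9% and 14.7%). Outside promoters MAF letters were in 23.9% of called peaks against 21.2% of all, and RUNX letters in 19.4% against 17.5%. The GC box was rarer in called peaks (10.4% and 8.73% against 21.7%), of which fewer were promoters. E-box (4.91% and 6.77%, against 6.07%), NFIL3 (0.96% and 1.81%, against 1.00%) and C/EBP (0.14% and 0.15%, against 0.18%) matches were few. The searches covered both strands of the peak of 201 bases, and a base could belong to matches of more than one motif.

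Sequences of ribosomal RNA origin stood apart in A/J. Of 32 tested peaks annotated as rRNA repeats, spread over 17 chromosomes, 25 were called and all 25 were higher in A/J. That was 78.1%, against 1.43% of all tested peaks called higher in A/J. All 32 had a log2 ratio above 0 (0.54 to 3.01, median 1.96). Their summed normalized count was 6495, 9939, 5673 and 6147 in A/J, 2041, 2190, 2209 and 903 in BALB/cJ, with no overlap, while C57BL/6J libraries held 1843 to 4100. The 5 peaks in Rn45s, the ribosomal RNA precursor gene on chromosome 17, which was singled out after its values were seen, were also all higher in A/J (log2 ratios 1.81 to 2.35, adjusted p of 3.29e-05 or less), with sums of 6495, 10136, 5299 and 6402 against 2040, 2117, 1986 and 1172. In 9 of the 32 repeat peaks at least 50% of the 30-base words recur in mm10, and in 3 none do. Whether reads from the many ribosomal RNA gene copies landed on these peaks was not tested. The 32 are not taken as independent sites.

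**Figure D5:**
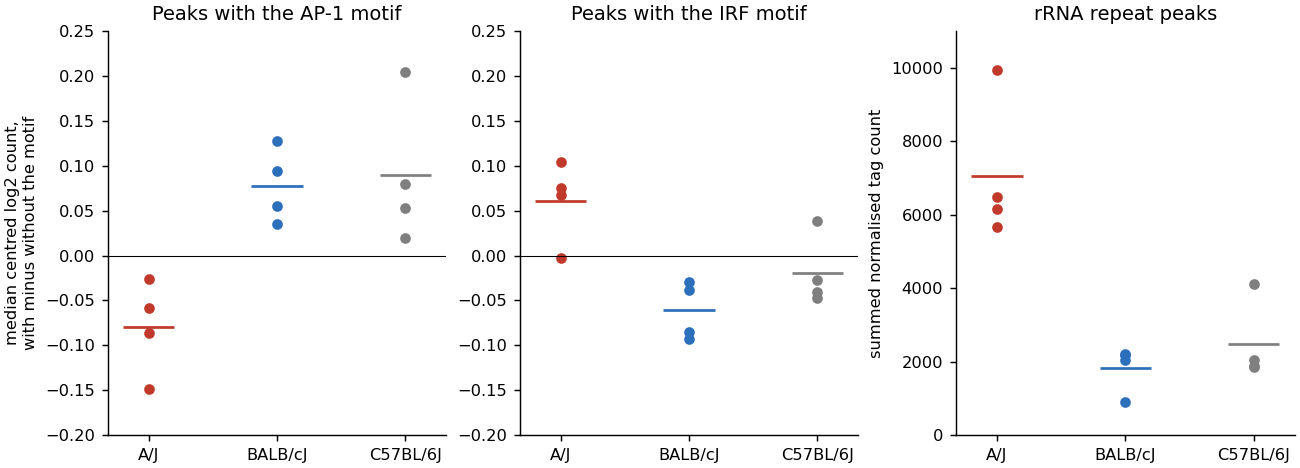
Values by library, with 4 libraries a strain and a bar at their mean. The first 2 panels give the median centered log2 count of peaks outside promoters with the AP-1 or IRF motif less that of peaks without it, and the third gives the summed normalized count of the 32 rRNA repeat peaks. A/J lies below BALB/cJ for AP-1, and above it for IRF and for rRNA repeats.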

How the data were processed

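ATAC-seq of sorted Kupffer cells was compared between 4 A/J control and 4 BALB/cJ control libraries. The authors cut reads to a length of 30 bases, mapped each strain with Bowtie2 to its own variant genome, moved the positions to mm10 and counted tags with HOMER in 1000-bp windows around peaks of 200 bp, and they deposited one table of tag counts, here used under the unit of expected counts, since 39.7% to 49.7% of the values in these 8 libraries were not whole. Libraries of LPS-treated mice in the same table held whole values, and the reason was not tested. Per the labels, FastQC and DESeq2 were also used. Windows of neighboring peaks can overlap, and peaks are named by the nearest gene in the deposited table, which need not be their target.

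Here the values were rounded to whole tags. Peaks of chromosomes 1 to 19 with a mean normalized count over 16 were tested with the quasi-likelihood test of edgeR 4.0.16 in R 4.3.3, with TMM scaling and Benjamini-Hochberg adjustment over all tested peaks. Calls needed an adjusted p under 0.05 together with a change over 2-fold, and SE is that of the log2 ratio. Normalized counts are tags divided by the scaled library size, so 1 tag was worth 1.10 to 2.10 in an A/J library and 0.09 in BALB/cJ replicate 4. Intervals and floors cover counting error only, at 95% and 3 tags. Ratios given with an interval or a floor use tags summed over the libraries of each strain, scaled for summed depth. BALB/cJ replicate 4 weighs most in them, and they can differ from the fitted ratio. The fit was tested on simulated counts. Named promoter peaks were the called peaks with the largest log2 ratio and no overlap, with 1 peak a gene and without predicted genes (Gm, Rik and LOC names), Mir, Snor and ribosomal protein genes, other named peaks those of smallest p within 100 kb of a start under the same limits, and list peaks up to 4 genes a list by largest log2 ratio, plus chosen examples, from which the text gives a part. Alternatives used DESeq2 1.42.0, limma 3.58.1 for loess offsets, other filters, scalings, thinning, added libraries and exclusion of each library. The members, gene lists and motifs were chosen with earlier results of these data known, so no list was tested. Some peaks that these rules name are not reported here.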

Additional observations from a re-analysis of the deposited data

Results flagged for a closer look

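Among 148 groups of 4 libraries checked, 16 had a library far from the other 3, and chance alone sets apart about 1 in 20 groups. BALB/cJ replicate 4 was one such library by depth, at 46.35 M tags in autosomal peaks, and it lay apart at 4 of the 16. At sites nearly closed in a strain the library apart was the one with a few tags: H2-Bl in BALB/cJ replicate 4 (0.09419), Arl15 in BALB/cJ replicate 4 (1.036), Mefv in A/J replicate 4 (1.592), Tmsb10 in A/J replicate 4 (3.185), Myoc in A/J replicate 2 (2.193) and Mef2c in BALB/cJ replicate 1 (6.836).

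Other libraries stood high in their group. These were BALB/cJ replicate 3 at Slfn8 (21.64), Tlr2 (454.5) and Osm (212.4), BALB/cJ replicate 2 at H2-M2 (27.61) and at the Slc11a1 promoter (306.6), and A/J replicate 3 at Cxcl13 (18.92). Libraries that stood low were BALB/cJ replicate 1 at Marco (4.101), A/J replicate 3 at Lbp (60.96) and BALB/cJ replicate 4 in the summed rRNA repeat peaks (903). All values except the depth are normalized counts.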

How the results depend on the processing

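The number of called peaks followed depth and the filter on low counts. With no minimum count 3640 peaks were called (1319 higher in A/J, 2321 in BALB/cJ), with a minimum mean count of 32 1063 were (343 and 720), and with all libraries thinned to the smallest 889 were (304 and 585), where fewer peaks were tested. Leaving out each library gave 1332 to 2673 calls, 538 to 970 higher in A/J and 794 to 1703 higher in BALB/cJ, with the fewest calls without BALB/cJ replicate 4. Within peaks of both strain lists, an alternative chosen after seeing the data, 1189 were called (466 and 723). DESeq2 called 2260, of which 2043 were shared. The share of calls higher in A/J was 31.0% to 40.4% under all these fits. With the replicate number as a block 2938 peaks were called (1065 and 1873). The correlation of deviations of same-numbered libraries was 0.14, 0.40, 0.05 and 0.38, so not every pair passed 0.1 and the numbers were not taken to pair the libraries, and not every library went best with its own number (A/J replicate 1 had 0.24 with BALB/cJ replicate 2). Replicates 1 and 2 of A/J correlated with replicates 1 and 2 of BALB/cJ at 0.08 to 0.40. Replicates 3 and 4 of A/J correlated with replicates 3 and 4 of BALB/cJ at 0.05 to 0.38. Correlations across these sets ran from -0.41 to -0.06. The paper colors a plot of the parental ATAC-seq libraries by batch, but the labels give no batch. None was therefore in a fit, and its part in the results was not tested. Of 64 called peaks named, 55 were called under every alternative that tested them and none reversed. H2-Aa, H2-T24, Cd163, Marco, Irak2, Jun, Lif, Lepr and Cxcr4 lost their call under at least 1. Depth was 2.05 M tags in the shallowest library.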

Other observations

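The called peak with the highest mean count, chosen after its values were seen, lay at chr1:24612646-24612846 of mm10, 25.3 kb from the start of Col19a1. It held 9776, 10997, 10281 and 11620 normalized counts in A/J and 696, 743, 928 and 3920 in BALB/cJ, a log2 ratio of 2.75 ± 0.38 (SE, adjusted p = 8.63e-05 in the edgeR test). All A/J libraries lay above all BALB/cJ libraries, and BALB/cJ replicate 4 lay above the other 3 of its group. The 4 C57BL/6J control libraries, processed without the shift between genomes, held 7 to 30 there. Tags in mitochondrial peaks were 0% of those libraries and 19.9% to 26.9% of the A/J and BALB/cJ control libraries, and their part in this peak was not tested.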
